A study of Mus musculus with 12 samples.

Results

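Osteopontin, encoded by Spp1, is a secreted phosphoprotein, and CD44 and several integrins are its receptors on leukocytes. The 6 genes described here are Spp1, Cd44 and the genes of 4 integrin chains, Itgav, Itgb1, Itgb3 and Itga4. They were found by symbol, all 6 of 6, in a table of 18929 gene symbols, and all 6 passed the filter on low values (a normalised count over 10 in at least 3 libraries), as did 12699 genes in all. The values came from mouse T cells of strain C57BL/6 cultured under T helper 1 (Th1) polarising conditions until day 5 and then sorted. The comparison set 3 control libraries of wild-type genotype against 3 libraries labelled Sdhc cKO, a conditional knockout of the C subunit of mitochondrial complex II. The sources used here do not name the Cre driver or the number of animals. Of the 12 samples of the series, the 6 of the Slc25a1, Slc25a11 and empty vector groups were not analysed here.

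Integrins are pairs of an alpha and a beta chain that hold cells to matrix and to other cells and signal inward when bound. Osteopontin is bound by Itgav paired with Itgb1 or Itgb3 through an Arg-Gly-Asp motif, and by Itga4 paired with Itgb1 through a stretch next to that motif that thrombin cleavage uncovers. CD44, the hyaluronan receptor and a marker of activated and memory T cells, binds osteopontin without that motif. In T cells osteopontin has long been known as an early activation product that favours Th1 responses, and T-bet, the factor that specifies Th1 cells, is known to act on Spp1. The stretch of Spp1 that holds the integrin-binding site is shown because 4 of the 6 genes encode chains that dock on it. It is given from GENCODE M21 for transcript Spp1-202, plus strand, chr5:104439457-104439525 (GRCm38), within exon 7 of 8, and the capitals mark the 9 bases that code for Arg-Gly-Asp.

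Spp1 integrin-binding stretch: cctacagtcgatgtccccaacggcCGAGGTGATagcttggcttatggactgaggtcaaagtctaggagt

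The Arg-Gly-Asp codons occurred 1 time in the 295 codons of that reading frame, starting at codon 145. The bases that follow the capitals code for the stretch that Itga4 with Itgb1 binds. The counts of the study are sums per gene, so they do not show whether a cell made a transcript with or without any one exon.

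The libraries held 18144933 to 21983821 counted reads. Values are normalised counts, which are gene reads divided by 1 size factor per library, unless a sentence says that they are per kb. Sdhc itself overlapped between the groups, with a control mean of 1726 ± 149 and a cKO mean of 1556 ± 102 (SD, n = 3 each). These sums per gene do not bear out the knockout label, and the extent of the deletion was not tested. Sex-linked transcripts differed between libraries: reads on 4 Y-linked genes made up 0.048 RPM (reads scaled to a common total) in control 1 and 0.207 RPM in cKO 1, against 55.1 to 193 RPM in the other 4 libraries. The X-inactivation RNA Xist was at 2490 to 9780 in the controls, 7565 in cKO 1 and at most 2.15 in cKO 2 and 3. Libraries almost without Xist were thus found only in the cKO group. Differences between the groups cannot be fully told apart from this difference in sex-linked transcripts. Markers of T cells were abundant in every library (Cd4 at 10113 to 11045, Lck at 9577 to 12413). The genes described were chosen by their biology and by the measured cKO against control difference at Spp1, so their differences are given as a description with no test.

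Spp1 was the lowest of the 6 genes and the one whose groups lay farthest apart. Its normalised counts were 86.1, 85.3 and 96.8 in controls 1 to 3 against 33.1, 38.0 and 45.2 in cKO 1 to 3. Every cKO library was below every control, and the highest cKO value was under the lowest control value by a wide margin. The means were 89.4 ± 6.42 and 38.8 ± 6.07 (SD, n = 3 each), so cKO stood at 43.4% of control. On the log2(value + 1) scale, which understates differences of low genes, the fold change (log2FC, cKO minus control) was -1.19 (SE 0.19, 95% interval -1.63 to -0.76), the 7th lowest of the 12699 tested genes. None of the 500 tested genes nearest to Spp1 in level had a larger absolute log2FC (0%). As Spp1 was chosen by this difference, its rank and this share follow from the choice and are not evidence about it.

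The reads behind these values were few. Spp1 had 93, 87 and 88 reads in controls 1 to 3 against 33, 42 and 42 in cKO 1 to 3, which gives a counting error of 10.4% to 10.7% per control library and 15.4% to 17.4% per cKO library. Its spread within groups was small for a gene of this level, with an SD of 0.17 on the log2 scale against a median of 0.29 over those 500 genes. In both groups replicate 3 held the most Spp1. Within same-numbered libraries, the log2 difference was -1.35, -1.15 and -1.08 for replicates 1, 2 and 3. Control 1 and cKO 1 were the libraries with almost no Y-linked reads. The labels do not state that same-numbered libraries are pairs.

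What brought Spp1 into view was a call by DESeq2 in an earlier account of these data, and that call sat at the threshold. With all 18929 symbols in the fit the DESeq2 adjusted p was 0.0449 (0.0158% of all genes called), and with genes of low value left out it was 0.0504, just past 0.05 (0.0157% called). In the limma fit used here the adjusted p was 0.978 and in edgeR 0.992. It was 0.156 in limma with the replicate number as a block (0.00787% called), and 0.0117 with the share of Y-linked reads as a covariate (log2FC -1.27), a fit that called 6.5% of all genes. These values selected the gene and are not evidence about it. GENCODE M21 places another gene model, Gm42793, on the same strand over 309 of the 1648 exon bases of Spp1, and that model is not a row of the table.

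Itgb3, the beta chain of the vitronectin receptor, was the other gene whose groups did not overlap, and it lay in the opposite direction from Spp1. Its normalised counts were 2581, 2821 and 3053 in controls 1 to 3 against 3513, 3451 and 3157 in cKO 1 to 3. The lowest cKO library, replicate 3, was above the highest control, also replicate 3, by only a small amount. The means were 2818 ± 236 and 3374 ± 190 (SD, n = 3 each), or 120% of control, with log2FC 0.26 (SE 0.09, 95% interval 0.06 to 0.46). Among the 500 tested genes nearest in level, 2.6% had a larger absolute log2FC, a description only, as the genes were chosen with this contrast known. The log2 difference was 0.44, 0.29 and 0.05 in same-numbered libraries, so it was much smaller in replicate 3.

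Among all tested genes, all 3 cKO values lay below every control at 5.64% and above every control at 4.51%, together 10.2%. Of the 6 genes, 1 lay below (Spp1) and 1 above (Itgb3). As this comparison was used to choose the genes, nothing is read from that count.

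**Figure D1:**
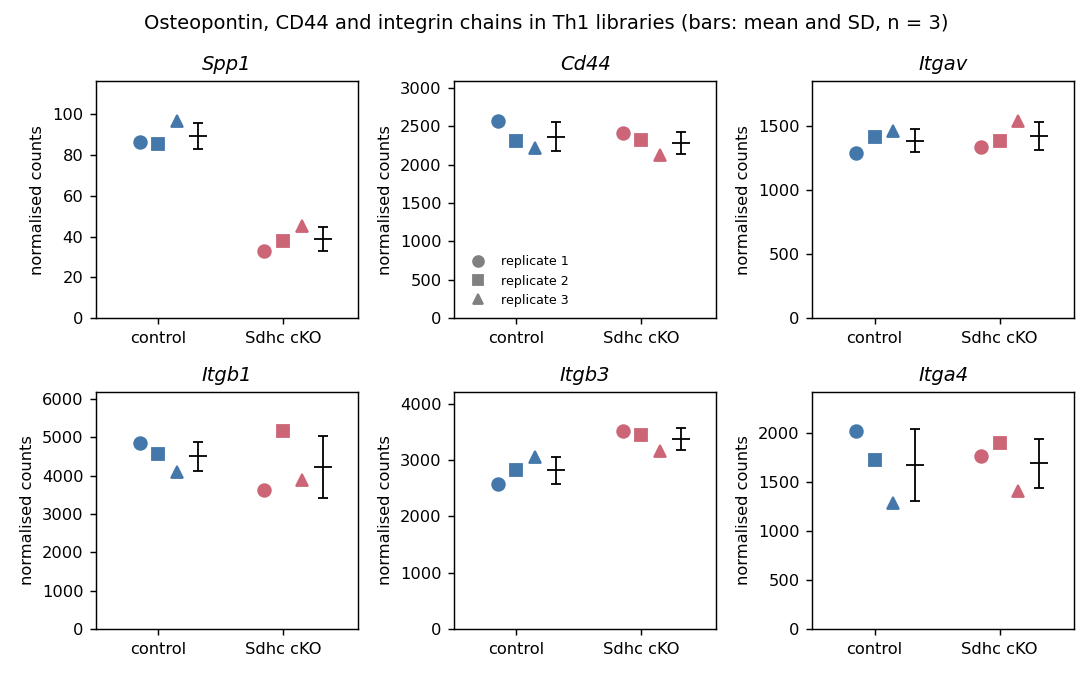
Normalised counts of the 6 genes in each library, with control in blue, Sdhc cKO in red, symbols for the replicate number, and bars for the mean and SD of 3 libraries; each vertical axis starts at 0. Spp1 sits at 85.3 to 96.8 in the controls and 33.1 to 45.2 in cKO, Itgb3 is above the controls in all 3 cKO libraries, and the other 4 genes overlap.

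Itgav, the alpha chain that pairs with Itgb3, overlapped between the groups. Controls 1 to 3 held 1284, 1414 and 1455 normalised counts, and cKO 1 to 3 held 1336, 1385 and 1540. The lowest library was control 1 and the highest cKO 3, with means of 1384 ± 89.6 and 1420 ± 107 (SD, n = 3 each) and log2FC 0.04 (SE 0.09, 95% interval -0.17 to 0.24). The partners thus differed in what they showed: per kb of exon, Itgb3 stood at 3.66, 3.63 and 3.82 times Itgav in controls 1 to 3, against 4.79, 4.54 and 3.73 times in cKO 1 to 3. That ratio was higher in cKO 1 and cKO 2 than in any control, while cKO 3 lay within the control range. GENCODE M21 has a non-coding gene, Gm13684, on the opposite strand over 5.90% of the exon bases of Itgav; its own row held 15.4 to 35.2 normalised counts, and the strand setting of the counting is not given in the sources used here.

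Itgb1, the common beta chain that pairs with Itgav, Itga4 and many other alpha chains, varied more within the cKO group than between groups. Its normalised counts were 4846, 4573 and 4105 in controls 1 to 3 against 3630, 5157 and 3893 in cKO 1 to 3. The cKO group held both the lowest and the highest of the 6 values. Group means were 4508 ± 375 and 4227 ± 817 (SD, n = 3 each), with log2FC -0.11 (SE 0.14, 95% interval -0.42 to 0.21). Its SD within groups of 0.21 on the log2 scale was larger than that of 82.8% of the 500 tested genes nearest in level.

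Itga4, the alpha chain of the receptor for VCAM1 and for cleaved osteopontin, had the widest spread of the 6 genes within groups. Controls 1 to 3 held 2013, 1722 and 1283 normalised counts, and cKO 1 to 3 held 1757, 1893 and 1406. Replicate 3 was the lowest library of both groups, and the groups overlapped. The means were 1672 ± 368 and 1685 ± 251 (SD, n = 3 each), with log2FC 0.02 (SE 0.18, 95% interval -0.39 to 0.43), an interval that leaves room for differences larger than the one at Itgb3 in either direction. The SD within groups of 0.28 was larger than that of 94.2% of the 500 tested genes nearest in level. Exons of Cerkl, on the opposite strand, cover 8.04% of the exon bases of Itga4, and Cerkl held 34.3 to 65.3 normalised counts.

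Cd44, the receptor that is not an integrin, overlapped between the groups. Controls 1 to 3 held 2576, 2310 and 2213 normalised counts, and cKO 1 to 3 held 2407, 2321 and 2130. In both groups replicate 1 was the highest and replicate 3 the lowest. The means were 2366 ± 188 and 2286 ± 142 (SD, n = 3 each), with log2FC -0.05 (SE 0.09, 95% interval -0.25 to 0.15). Variant exons of Cd44, which alter what CD44 binds, are not resolved by a sum per gene.

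**Figure D2:**
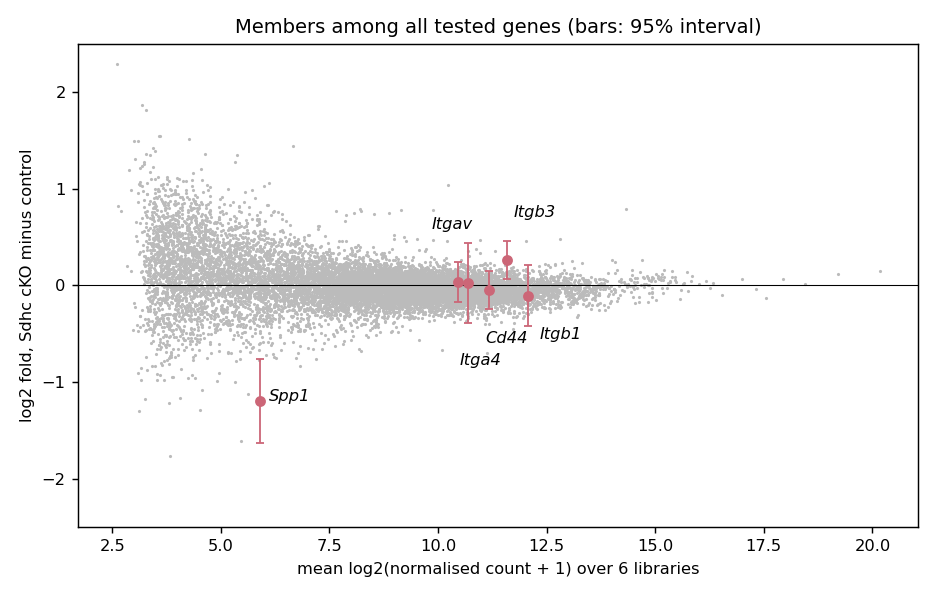
Log2 fold change (log2FC, Sdhc cKO minus control) against mean log2(normalised count + 1) over 6 libraries for 12699 tested genes (grey, 2 of them outside the plotted range), with the 6 genes in red and bars for the 95% interval. Spp1, at -1.19, lies below the grey cloud at its level, and Itgb3, at 0.26, near its upper edge. The 6 genes were chosen with this contrast known, so the intervals describe spread and are not a test.

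Levels can be compared between genes only per length, so the values were divided by the exon bases of each gene in GENCODE M21. On this scale Itgb1 stood highest, with a control mean of 1105 normalised counts per kb and a range of 889 to 1264 over the 6 libraries. Itgb3 followed at 478 (437 to 595) and Cd44 at 349 (314 to 380), and these 3 ranges did not overlap each other. Itgav, at 129 (119 to 143), and Itga4, at 120 (91.8 to 144), overlapped and cannot be ordered. Dividing by coding length instead exchanged those 2 genes. Spp1 came last, with a control mean of 54.2 ± 3.89 per kb and a cKO mean of 23.5 ± 3.68 (SD, n = 3 each). The ligand was therefore the least abundant of the 6 transcripts in every library. Cd44 transcripts exceeded it 5.56-fold to 7.27-fold per kb of exon in the controls and 11.5-fold to 17.7-fold in cKO. Per kb of coding sequence the control means were 1011 for Cd44 and 101 for Spp1, so the size of this excess depends on the length used.

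Itgb1, Itgb3 and Itgb7 were each more abundant per length than Itgav and Itga4. Per kb of exon, Itgb1 stood at 6.65 to 9.94 times Itgav and at 7.08 to 11.0 times Itga4 over the 6 libraries. The groups overlapped in both ratios. The size of such ratios depends on the length used. Per kb of coding sequence the control means were 1883 for Itgb1, 1194 for Itgb3, 442 for Itgav and 540 for Itga4. Itgb7, the other beta chain that pairs with Itga4, stood at 12.3 to 19.7 times Itga4. Itgb5, another partner of Itgav, was at only 0.026 to 0.042 times Itgb3.

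Within the integrin family, the chains described were of middle to high level. Of 25 integrin chains with a row in the table, Itgb1 ranked 4, Itgb3 6, Itgav 7 and Itga4 8 by control mean per kb. Above them stood Itgb2 at 2939, Itgal at 1756 and Itgb7 at 1755, the chains of the leukocyte integrin LFA-1 and the beta chain of the gut-homing integrin, and Itga6 (819), a laminin receptor chain, ranked 5. Below Itga4 the levels dropped to 44.0 for Itga5, the fibronectin receptor chain, and to 17.3 for Itgb5.

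**Figure D3:**
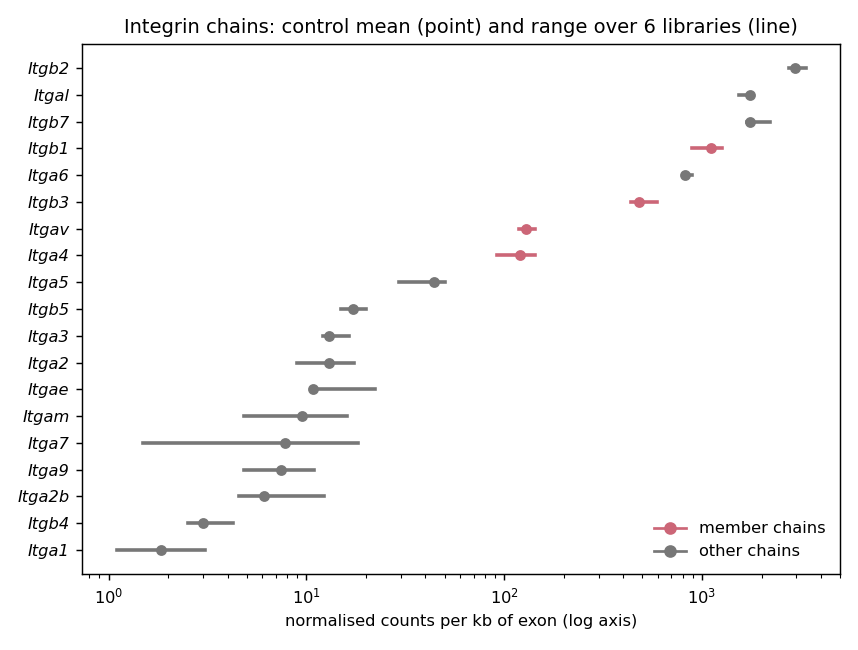
Normalised counts per kb of exon on a log axis for the 19 tested integrin chains, with points for the control mean and lines for the range over the 6 libraries; the 4 chains described are red. Itgb1 and Itgb3 lie among the 6 highest chains, and Itgav and Itga4 lie next to each other between Itgb3 and Itga5.

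Genes around the receptors were read from 9 lists with 104 genes, of which 89 had a row and 69 were tested. None of the 69 passed (limma adjusted p over all genes, threshold 0.05), against 0% of all 12699 tested genes; 6 of the 69 and 445 of all had an unadjusted p under 0.05. edgeR on recovered reads also called 0% of all genes, with 455 at an unadjusted p under 0.05. The limma adjusted p of 0.978 was shared by list genes with unadjusted limma p from 0.0021 (Itgae) to 0.44 (Itga2b). It therefore does not rank the genes beside which it is printed. The median log2FC was -0.03 over the 69 genes and -0.01 over all tested genes. Of the 69, 47 were negative and 22 positive, a larger negative share than the 54.1% of all tested genes. Every cKO value lay above every control at 3 of the 69 and below at 6, against 4.51% and 5.64% of all tested genes. The 3 above were Itga6, Itgae and Esrp2, and the 6 below were Nf2, Rap1a, Apbb1ip, Tbx21, Myb and Vdr.

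Of 7 further chains of osteopontin-binding integrins, 4 were tested, 0 passed, 2 had positive and 2 negative log2FC values, and the median was 0.06. Itgb7 had means of 4861 ± 186 and 5407 ± 720 (log2FC 0.15, SE 0.10), Itga5 217 ± 22.0 and 195 ± 52.4 (-0.18, SE 0.20) and Itga9, the chain that also binds cleaved osteopontin, 57.0 ± 24.4 and 61.3 ± 11.6 (0.17, SE 0.32; limma adjusted p = 0.984). Itgb8 and Itga8 were below the filter, at up to 13.7 and 2.20 normalised counts, and Itgb6 had no row. Of 16 other integrin chains 11 were tested, 0 passed, 6 were positive and 5 negative, and the median was 0.01. The beta chain of LFA-1, Itgb2, had means of 8968 ± 656 and 8993 ± 1077, and its alpha chain Itgal 11537 ± 249 and 10801 ± 663. Itgae, the gene of the alpha chain CD103, had 49.6 ± 1.27 and 89.8 ± 14.7, log2FC 0.83 (SE 0.18, limma adjusted p = 0.978). It was, with Itga6, 1 of the 2 of 11 with every cKO value above every control, against 4.51% of all tested genes. Itga1, with -0.10 (SE 0.44), had the lowest log2FC of those 11 chains.

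Genes that carry signals from integrins had log2FC values between -0.17 and 0.15. Of 25 such genes 19 were tested, 0 passed, 14 had negative and 5 positive log2FC values, and the median was -0.05. Talin, Tln1, which couples integrins to actin and activates them, had means of 11261 ± 379 and 10827 ± 536. Cd47, a membrane partner of Itgav with Itgb3, had 12707 ± 420 and 12680 ± 644. The largest negative value was that of Rap1a, a small GTPase that triggers integrin activation, with 2515 ± 129 and 2232 ± 86.4 (log2FC -0.17, SE 0.07, limma adjusted p = 0.978), and the largest positive one was that of the adaptor Parvb, with 0.15 (SE 0.35). Rap1a and Apbb1ip, which links Rap1 to talin, were the 2 of 19 with every cKO value below every control, against 5.64% of all tested genes. Integrin-linked kinase, Ilk, was listed at 0 to 4.30 normalised counts, but 76.7% of its exon bases are covered by exons of Taf10 on the opposite strand (Taf10 held 1463 to 1618), so its row cannot be taken as its level.

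Of 15 CD44 partners, ligand-synthesis and shedding genes 13 were tested, 0 passed, 10 had negative and 3 positive log2FC values, between -0.25 and 0.53, and the median was -0.03. The ERM proteins that tie CD44 to actin were among the most abundant, with Msn at 18523 ± 691 and 18435 ± 846 and Ezr at 8311 ± 434 and 8309 ± 407. The hyaluronan synthase gene Has3 had 80.7 ± 13.0 and 118 ± 29.5 (log2FC 0.53, SE 0.23, limma adjusted p = 0.978), the largest positive value of this list, and Cd74, a co-receptor that works with CD44, 139 ± 54.9 and 110 ± 13.7 (-0.25, SE 0.30), the largest negative one. Of 7 splicing factors known to act on Cd44 exons 6 were tested, 0 passed, 5 were negative and 1 positive, between -0.34 and 0.69, and the median was -0.13. Esrp2, an epithelial splicing factor, was low at 29.1 ± 7.60 and 46.5 ± 5.57 (0.69, SE 0.26, limma adjusted p = 0.978), and Srsf1, a general splicing factor, had 4517 ± 824 and 3620 ± 963 (-0.34, SE 0.22). The 2 most abundant, Hnrnpa1 and Hnrnpl, had log2FC values of -0.02 (SE 0.10) and -0.14 (SE 0.14).

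Other ligands of the same integrins were mostly near the floor. Of 13, 4 were tested, 0 passed and the median was 0.01. Fn1, Vtn, Vcam1, Madcam1, Tnc and Fgg did not pass the filter, so Spp1 was one of few ligand genes with a measurable level. Tgfb1, whose latent protein is activated by Itgav integrins, had 5950 ± 386 and 5671 ± 745 and Mfge8, an Arg-Gly-Asp ligand, 680 ± 176 and 731 ± 204. Thrombospondin, Thbs1, had 32.6 ± 5.53 and 20.7 ± 11.9 (log2FC -0.75, SE 0.38, limma adjusted p = 0.978), and Emilin1 had the largest positive value, 0.17 (SE 0.17). Of 8 enzymes that cleave or modify osteopontin, 3 were tested and 0 passed. Tgm2, which cross-links osteopontin, had 1183 ± 306 and 1148 ± 234, Acp5, which removes its phosphates, 618 ± 121 and 664 ± 145, and Mmp9, which cleaves it, 72.4 ± 32.8 and 58.4 ± 10.8.

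Of 9 transcription factors known to act on Spp1, all were tested, 0 passed, 7 had negative and 2 positive log2FC values, and the median was -0.09. Tbx21, the gene of T-bet, had means of 1794 ± 154 and 1454 ± 72.1, log2FC -0.30 (SE 0.09, limma adjusted p = 0.978). Myb had 731 ± 104 and 588 ± 20.3 (-0.30, SE 0.11), and the vitamin D receptor gene Vdr 38.1 ± 3.77 and 30.1 ± 1.82 (-0.33, SE 0.20). These 3 of 9 had every cKO value below every control, against 5.64% of all 12699 tested genes. Ets1 and Runx3, the 2 most abundant of the list, had log2FC values of 0.00 (SE 0.10) and -0.01 (SE 0.07), and Runx1 had the largest positive value, 0.04 (SE 0.10).

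With the share of Y-linked reads as a covariate limma called 826 genes, 6.5% of those tested (1.65% higher and 4.86% lower), and 4 of the 69 list genes, 1 higher and 3 lower. With the replicate number as a block it called 0.00787% of all genes and none of the 69. Under the covariate Itgae was higher (adjusted p = 0.0286), and Tbx21 (0.0170), Srsf1 (0.0117) and Tra2b, another splicing factor (0.0187), were lower. Of the 6 genes described, that fit called Spp1, and the next was Itgb3 at an adjusted p of 0.0702. As the 6 genes were chosen with this contrast known, these values are not evidence about them.

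**Figure D4:**
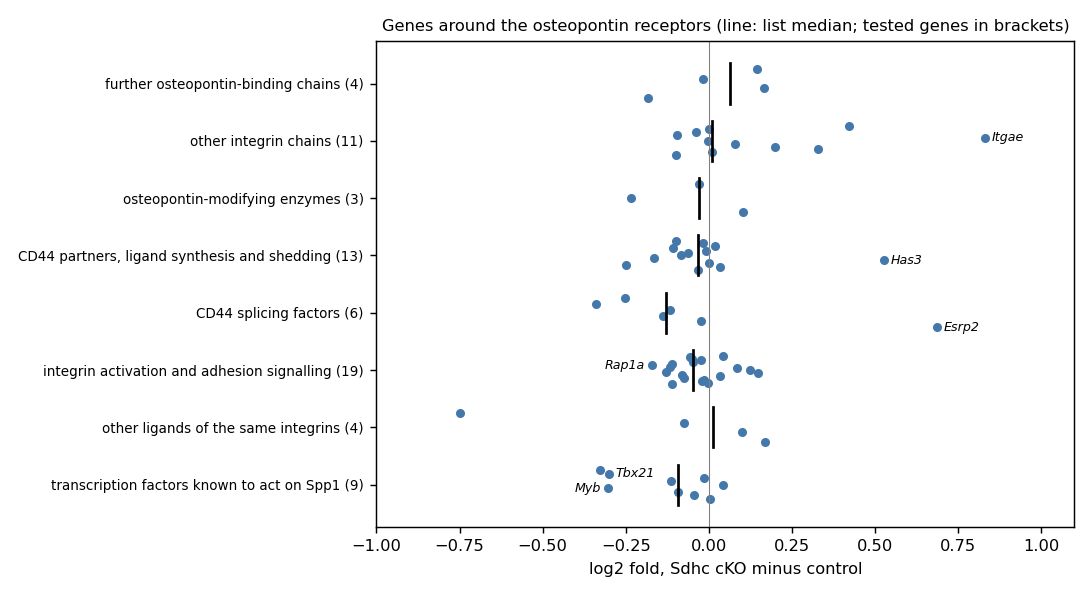
Log2 fold changes (Sdhc cKO minus control) of the 69 tested genes of the lists, 1 point per gene, with a black line for the median of each list; genes with an unadjusted p under 0.05 are named. Medians lie between -0.13 and 0.06, and none of the points passes the adjusted test.

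Several cell types besides T cells make Spp1, macrophages above all, so their markers were read beside it. Of 13 myeloid markers 8 had a row, and the macrophage markers Lyz2 (0.926 to 2.15 normalised counts), Csf1r (0.926 to 9.69), Cd14, Mrc1 and Ms4a7 stayed under 10 in every library, while Adgre1, Fcgr1, C1qa, C1qb and C1qc had no row. The sum of the 8 was 84.7 to 106 in the controls and 82.2 to 132 in cKO, with overlap, and most of it came from Cd68 and Aif1. The 7 NK cell markers summed to 2782 to 3028 in the controls and 2020 to 2862 in cKO, with overlap. Nearly all of it was Nkg7, a granule gene that Th1 cells also express, at 2623 to 2684 in the controls and 1914 to 2581 in cKO, with all 3 cKO values below. Klrk1 came next at 53.8 to 239. Of 7 gamma delta T cell genes 6 had a row, and Trdc did not. The 6 summed to 274 to 337 in the controls and 175 to 246 in cKO, with all 3 cKO values below. Tcrg-C2 and Tcrg-C1 gave most of the sum, and Trdv4 and Cd163l1 stayed under 10. At Tcrg-C1 and Tcrg-C4 every cKO value was below every control, as at 5.64% of all tested genes. The groups overlapped at Tcrg-C2 (120 to 154 in the controls, 73.2 to 121 in cKO) and at Sox13. The part of these cells in the Spp1 values was not tested. In bulk libraries fewer cells of a type and less RNA per cell cannot be told apart.

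The genes whose profile over the 6 libraries was most like that of Spp1 were Lrrk1, Tcrg-C1, Ifng, Muc13, Ncs1 and Casc4. Likeness was the root mean square difference between log2 values centred per gene, over 9768 genes with a mean of at least 50, and it ran from 0.27 for Lrrk1 to 0.34 for Casc4, where the median gene was at 0.61. All 6 had every cKO library below every control, against 5.64% of all tested genes, which follows from choosing them by likeness to Spp1. Their log2FC values of -0.61 to -0.83 were smaller in size than that of Spp1, itself the 7th lowest of all tested genes. Ifng, the Th1 cytokine gene, stood at 1342, 1461 and 1342 in controls 1 to 3 against 858, 880 and 865 in cKO 1 to 3. The likeness to Spp1 is carried by the difference between the groups.

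The nearest profiles of the receptor genes lay at 0.01 to 0.08, where the median gene lay at 0.15 (Itgav) to 0.27 (Itga4). The groups did not overlap at 1 of these 10 neighbours, Ttll3, against 10.2% of all tested genes. Nearest to Cd44 were Hadhb (0.01) and Nudt13 (0.02), to Itgav Ptcd1 (0.01) and Vps72 (0.03), to Itgb1 Maml2 (0.07) and Slamf6 (0.07), to Itga4 Cd226 (0.07) and Ermard (0.08), and to Itgb3 Mrpl9 (0.04) and Ttll3 (0.05). Cd226, an adhesion receptor of T and NK cells, stood at 657, 622 and 476 in controls 1 to 3 against 604, 621 and 482 in cKO 1 to 3, so replicate 3 was lowest in both groups, as at Itga4. None of the 6 genes was among these neighbours of another.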

How the data were processed

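Libraries of sorted Th1 cells were made with a TruSeq RNA kit, per the labels' protocols. The submitters' processing notes name STAR, HTSeq, DESeq2 and build mm10, without versions or settings. The authors deposited 1 signal value per gene and library, a read count divided by a size factor: 100% of values in each library were whole multiples of 1 step, within 0.01. Reads recovered in this way served the count tests (edgeR 4.0.16, DESeq2 1.42.0). As the deposited values are normalised, the main test was limma-trend on log2(value + 1) in limma 3.58.1 and R 4.3.3, fitted on genotype with p-values adjusted by Benjamini-Hochberg over the 12699 genes above 10 in 3 or more libraries. Positions, exon bases and the coding stretch came from GENCODE M21 (GRCm38, the assembly of mm10), in which 17568 symbols were found. Protein sequences were not used here.

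The genes described and the lists were chosen with earlier results of these data known. Besides the 6 genes, the text names from each list the largest positive and negative fold change and the 2 highest means, the 6 nearest profiles of Spp1, 2 of each other gene, and the 2 highest markers of a list; others were named after their values were seen. The fits were also run on simulated counts that held no sex or replicate structure, so that run does not bear on these features of the libraries. Groups share replicate numbers: after subtraction of group means, same-numbered libraries correlated across genes at 0.579, 0.458 and 0.188, each over 0.1, while the labels do not state a pairing; control 2 and cKO 3 correlated at 0.272. No source used here says whether replicates are separate animals. Y-linked and Xist levels differed between the 3 controls and set cKO 1 apart from cKO 2 and 3, so these are not repeats of 1 sample; between cKO 2 and 3 the spread may be technical.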

Additional observations from a re-analysis of the deposited data

How the results depend on the processing

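The log2 fold changes of the 6 genes moved by less than the spread within groups (1 SD) under each of 17 alternatives. In several of these the outcome was fixed in advance. The filters and the replicate block leave a fold change as it was, and leaving out 1 of 3 libraries cannot move it by 1 SD. The fold changes ran from -1.31 to -1.09 for Spp1, 0.20 to 0.32 for Itgb3, -0.26 to -0.01 for Itgb1, -0.10 to 0.01 for Cd44, -0.02 to 0.08 for Itgav and -0.16 to 0.17 for Itga4, so the sign of the last 3 was not fixed. The number of genes called over the table was 0 in the limma fit on genotype alone, with other pseudocounts (0.1 and 5), filters (none, or 50) and scalings, and with edgeR. It was 1 (Ifng) with the replicate block, 2 with DESeq2, 3 with DESeq2 and no filter, a setting added after seeing the data, and 826, Spp1 among them, with the Y-linked share as a covariate. With each library left out in turn it was 0 to 1, the 1 being Xist without cKO 1. Of the list genes 0 were called under every alternative except the covariate, which called 4. The replicate block called none of them. Dividing by coding length, also added later, exchanged Itgav and Itga4 in the order of levels. Depth limits Spp1 most, with 33 to 93 reads per library.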

Other observations

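Spp1 was the only gene of its family that passed the filter. Of its 4 relatives, acidic phosphoproteins of bone and teeth, Ibsp, Dspp and Mepe had no row, and Dmp1 was at 0 in the 3 controls and at no more than 2.01 normalised counts in any cKO library.

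Itga4 and Itgb7, chains of 1 integrin, had different profiles over the 6 libraries. Itga4 was lowest in replicate 3 of both groups, and Itgb7 stood at 4912, 4655 and 5016 in controls 1 to 3 against 6132, 5396 and 4692 in cKO 1 to 3, so Itgb7 per kb ran from 12.3 times Itga4 in control 1 to 19.7 times in control 3. Pecam1, kept as an endothelial marker, was at 891 to 1217, which makes up most of the sum of that list (932 to 1243), while Col1a1 was at 8.80 to 22.2. The B cell markers summed to 39.8 to 76.3, led by Cd79b and Cd79a, the dendritic cell markers to 58.3 to 88.6, led by Zbtb46 and Xcr1, and the CD8 T cell markers Cd8b1 and Cd8a to 235 to 547, with overlap between the groups in each.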
